A study of Mus musculus with 3 samples.

Results

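The interferon genes *Ifnb1*, *Ifna2*, *Ifna4*, *Ifna5* and *Ifng* and the receptor genes *Ifnar1*, *Ifnar2*, *Ifngr1* and *Ifngr2* were followed in RAW 264.7 cells, a mouse macrophage line. Their probes were taken by gene name from the array annotation, whatever their values. The members and the gene lists used below were chosen with earlier results of these data known, so their counts do not come from a blind choice. The 9 genes are represented by 14 of the 56605 gene probes of the microarray and are 9 of the 26840 genes that have a symbol there. There was 1 array for each of 3 conditions. Macrophages received LPS alone (LPS), *L. rhamnosus* CRL1505 followed by LPS (CRL1505 + LPS), or *L. plantarum* CRL1506 followed by LPS (CRL1506 + LPS). Each strain was given for 24 h at 50000000 cells/mL and washed off before LPS was added at 50 ng/mL. The series design gives 12 h of LPS and the sample descriptions give 3 h. All 3 groups received LPS. Cells without LPS were not analysed here. The cells are 1 immortalized line, so differences between animals do not enter these values.

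Type I interferons are secreted cytokines that make cells resistant to viruses. In macrophages, LPS binds TLR4, which signals through the adaptor TRIF to the kinase TBK1 and the factor IRF3, and *Ifnb1* is the classical gene switched on by this route. The secreted interferon β then binds a receptor built from the chains IFNAR1 and IFNAR2, and the kinases JAK1 and TYK2 activate STAT2. One of the genes induced in this way encodes IRF7, a factor that widens the response to the many *Ifna* genes. Interferon γ, encoded by *Ifng*, is made mostly by T and NK cells and acts on macrophages through the chains IFNGR1 and IFNGR2.

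Probe sequences are given first for the interferon α genes, because their near identity limits which gene a signal can be credited to. The probes of *Ifna5* and of the brighter *Ifna2* spot cover the same stretch of their genes, shifted by 7 bases. Capitals mark the 7 of 53 shared positions at which they differ.
Ifna5: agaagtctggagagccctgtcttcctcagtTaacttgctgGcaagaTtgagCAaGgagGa
Ifna2: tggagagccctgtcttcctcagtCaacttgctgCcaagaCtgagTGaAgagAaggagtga
The *Ifna4* probe was 40.4% identical to that of *Ifna5* at the best ungapped placement, so it reads another stretch.
Ifna4: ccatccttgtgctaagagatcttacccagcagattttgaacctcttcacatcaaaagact
The brighter *Ifna2* probe also carries the RefSeq accession of *Ifna9* in the array annotation. On the mm9 build it maps to chr4:88329111-88329170, the *Ifna5* probe to chr4:88481935-88481994 and the *Ifna4* probe to chr4:88487994-88488053. Ungapped, the *Ifna2* and *Ifna5* probes were 86.8% identical to each other. The *Ifna2* probe was 90.4% identical to a probe of *Ifnab*, and the *Ifna5* probe 89.3% identical to that of *Ifna13*. Signals of these genes are therefore uncertain as to the single gene, since transcripts of one may bind the probes of another.

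The arrays set the limits of all values below. LPS and CRL1506 + LPS shared a slide and a scan run. CRL1505 + LPS was on a second slide with its own run, so strain and slide cannot be told apart wherever CRL1505 is compared. Of the gene spots, 54.5% were well above background in LPS, 48.5% in CRL1505 + LPS and 55.3% in CRL1506 + LPS. The 75th percentile of signal was 743, 517 and 698 in the same order. Scaling to it therefore raises CRL1505 + LPS values relative to those of the other arrays. Conditions were not replicated (1 array each), so there is no test and no p-value. The only errors are within arrays. The log2 ratio had a median SD of 0.043 to 0.048 over repeated spots of a probe and of 0.22 to 0.32 between different probes of a gene. All 7 macrophage markers (*Adgre1*, *Cd68*, *Csf1r*, *Itgam*, *Lyz2*, *Spi1* and *Fcgr1*) were well above background on all 3 arrays. As these are bulk samples, fewer expressing cells and less RNA per cell cannot be told apart.

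*Ifnb1*, which encodes interferon β, was higher with both strains than with LPS alone, and it was highest with CRL1505. Its single probe (mm9 chr4:88168023-88168082) had a processed signal, an intensity before scaling between arrays, of 2275 in LPS, 17480 in CRL1505 + LPS and 10623 in CRL1506 + LPS. All 3 values were well above background, and the 3 arrays stand clearly apart. Scaled to the 75th percentile of each array, its log2 level was 1.61 in LPS, 5.08 in CRL1505 + LPS and 3.93 in CRL1506 + LPS. This corresponds to 11.0-fold (log2 ratio 3.46) above LPS with CRL1505 and 4.97-fold (2.31) with CRL1506. The spread between probes of a gene is smaller than either value. Both were past 2-fold, the fold used here to count a gene as higher or lower, in all 8 normalizations, where they ranged from 2.96 to 3.76 and from 2.11 to 2.42. Among genes well above background on both arrays, 19 of 13241 had a higher ratio than *Ifnb1* with CRL1505 and 67 of 14403 with CRL1506.

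The difference between the strains was smaller and depended on scaling. *Ifnb1* was 2.22-fold higher in CRL1505 + LPS than in CRL1506 + LPS (log2 ratio 1.15). CRL1505 was the higher in all 8 normalizations, with 0.75 at the lowest and 1.65 at the highest, but 3 of the 8 reached 2-fold. This comparison crosses the slides.

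**Figure D1:**
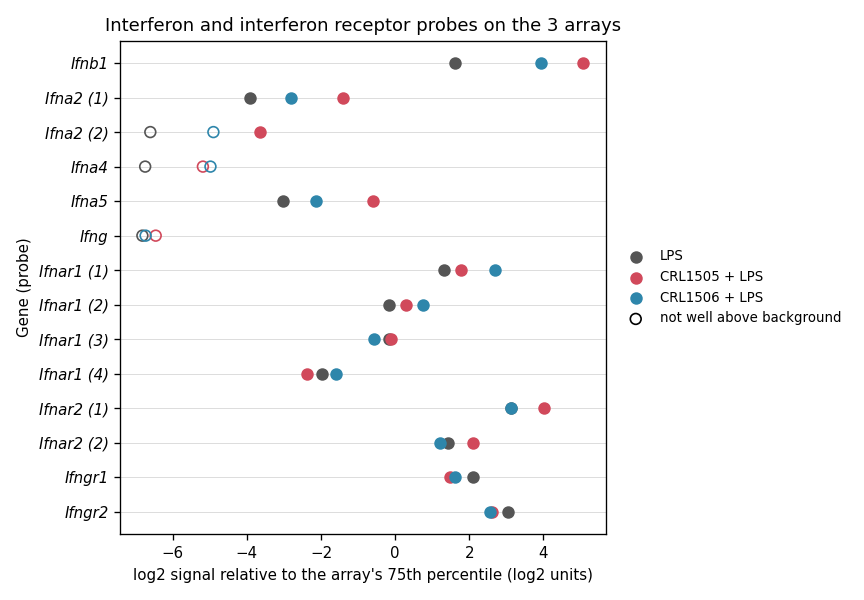
Log2 signal of each of the 14 probes, relative to the 75th percentile of its array, in LPS (grey), CRL1505 + LPS (red) and CRL1506 + LPS (blue). Each point is 1 array, open points were not well above background, and numbers in brackets order the probes of a gene by brightness. *Ifnb1* goes from 1.61 in LPS to 5.08 in CRL1505 + LPS, while *Ifna4* and *Ifng* have open points only. Levels may be compared along a row, not between rows.

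The interferon α genes measured above background had the same order of the 3 arrays as *Ifnb1*. *Ifna5* had a processed signal of 92.0 in LPS, 340.1 in CRL1505 + LPS and 158.1 in CRL1506 + LPS. Its log2 level was -3.01, -0.60 and -2.14 in the same order. The log2 ratio to LPS was 2.41 with CRL1505, or 5.32-fold, and 0.87 with CRL1506, or 1.83-fold. With CRL1505 it passed 2-fold in all 8 normalizations, with 1.70 at the lowest, in the deposited table. With CRL1506 it did so in 0 of 8. Between the strains the log2 ratio was 1.54, in favour of CRL1505, and was past 2-fold in all 8.

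The brighter probe of *Ifna2* had a log2 level of -3.92 in LPS, -1.40 in CRL1505 + LPS and -2.80 in CRL1506 + LPS, and all were well above background. CRL1505 + LPS was again highest and LPS lowest. The log2 ratio to LPS was 2.52 (5.72-fold) with CRL1505 and 1.11 (2.17-fold) with CRL1506. The first was past 2-fold in all 8 normalizations but fell to 1.52 in the deposited table and 1.55 with normexp. With the mean over both probes it was at least 1.68, since the dimmer probe enters that mean only as a lower bound. The second was past 2-fold in 3 of 8, with 0.44 at the lowest. The dimmer *Ifna2* probe (chr4:88329016-88329075) was well above background in CRL1505 + LPS only, at 41.5 against 7.6 in LPS and 23.3 in CRL1506 + LPS. It gives a lower bound, since it was not well above background (dim) on the other arrays, of at least 1.79-fold above LPS and at least 1.70-fold above CRL1506 + LPS. In such bounds the dim side is set to the lowest log2 level well above background on its array (-4.48 for LPS, -4.40 for CRL1506 + LPS), or to its own where that is higher. *Ifna9*, whose accession the brighter *Ifna2* probe also carries, has a probe of its own. Its log2 level was -3.63 in LPS, -3.28 in CRL1505 + LPS and -3.42 in CRL1506 + LPS, which gave ratios to LPS of 0.35 and 0.21.

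*Ifna4* and *Ifng* stayed below the detection limit, as neither was well above background in any condition, and no fold is given. The *Ifna4* probe read 6.9 in LPS, 14.2 in CRL1505 + LPS and 22.1 in CRL1506 + LPS. The *Ifng* probe (chr10:117882841-117882900) read 6.6, 5.9 and 6.6 in the same order. Of 9 T and NK cell markers, 4 were well above background on each array. *Cd3d*, *Cd3e* and *Prf1* were so on all 3, and the fourth was a different gene on each. With either strain 5 of the 9 could be compared with LPS, 2 of them by a bound, and 0 reached 2-fold in the main scaling. *Klrb1c*, well above background in CRL1505 + LPS only, had a lower bound of 0.73 (log2) above LPS. That bound reached 1.04 at the highest over the other normalizations, so a ratio past 2-fold is possible. *Cd8a*, *Cd3g* and *Eomes* were dim on all 3.

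**Figure D2:**
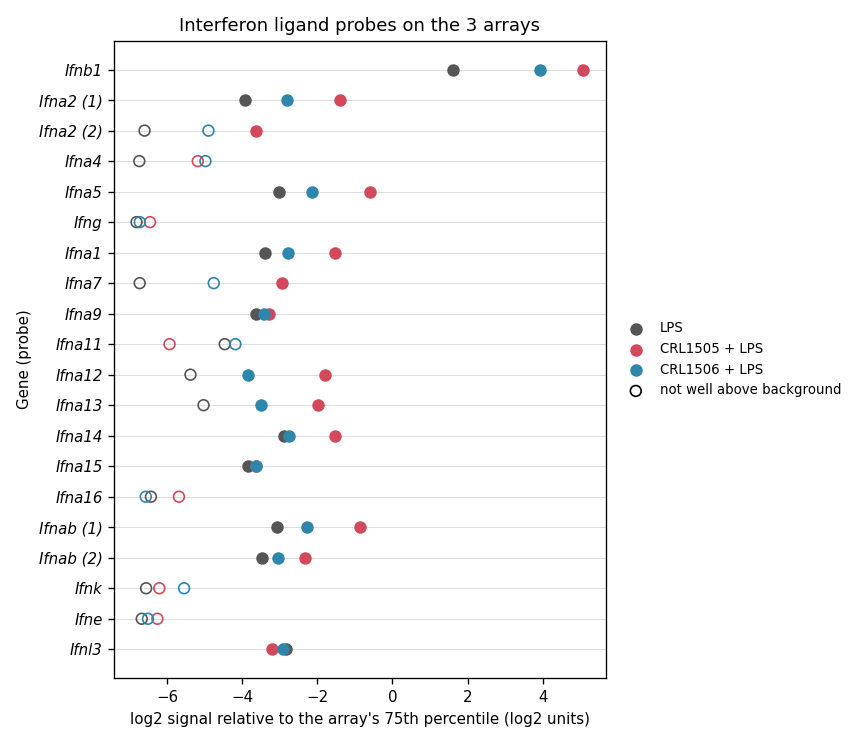
Log2 signal, relative to the 75th percentile of each array, for the probes of all interferon ligand genes of the lists that are on the array. Each point is 1 array (LPS grey, CRL1505 + LPS red, CRL1506 + LPS blue) and open points were not well above background. For most *Ifna* probes that were detected the red point lies furthest right, while *Ifna9*, *Ifna15* and *Ifnl3* have their 3 points within 0.37 or less of LPS and partly hidden behind one another.

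Other interferon ligands on the array had a similar order where they were detected. Of 13 such genes, 9 could be compared for CRL1505. Of these, 6 were at least 2-fold higher than in LPS, where 10.1% of all genes were. They were *Ifna1*, *Ifna7*, *Ifna12*, *Ifna13*, *Ifna14* and *Ifnab*. Without the probes that carry accessions of several genes, an alternative chosen after seeing the data, 4 were. The median log2 ratio of the 9 was 1.52, itself the lower bound of *Ifna7*, against 0.01 over all genes compared. Of the 9 ratios 3 were bounds, those of *Ifna7*, *Ifna12* and *Ifna13*. These 3 genes were dim in LPS and could be compared only because they were well above background in CRL1505 + LPS. For CRL1506, 8 could be compared, 2 of them by a bound. In the main scaling 0 of the 8 counted as 2-fold higher or lower, where 5.86% and 3.57% of all genes did. The 2 bounds, of *Ifna12* and *Ifna13*, are lower bounds, so these genes may still be past 2-fold. The median was 0.43 against -0.06 over all genes. *Ifna12* read 17.8 in LPS (not well above background), 149.1 in CRL1505 + LPS and 48.7 in CRL1506 + LPS. It was at least 6.43-fold higher than LPS with CRL1505 and at least 1.55-fold with CRL1506. *Ifna13* was at least 5.67-fold and at least 1.97-fold higher, respectively. These bounds belong to the main scaling. Over the other normalizations the log2 bound with CRL1505 fell to 1.58 for *Ifna12* and 1.41 for *Ifna13*, and with CRL1506 to 0.40 and 0.36. At the highest, the CRL1506 bound was 0.72 for *Ifna12* and 1.065, past 2-fold, for *Ifna13*. *Ifnl3*, a type III interferon, had log2 ratios of -0.37 and -0.07. *Ifnk*, *Ifne*, *Ifna11* and *Ifna16* were dim throughout. Since the *Ifna* probes resemble each other, these genes are not independent readings.

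Among the receptor chains, *Ifnar2* was higher with CRL1505 and close to LPS with CRL1506. IFNAR2 is the chain that binds type I interferons tightly. Both of its probes were well above background on all arrays and differed little in their ratios. The brighter is shown because the *Ifnar2* counts rest on it, and it lies at chr16:91394044-91394103.
Ifnar2: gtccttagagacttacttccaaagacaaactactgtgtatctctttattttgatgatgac
It read 6506 in LPS, 8280 in CRL1505 + LPS and 6103 in CRL1506 + LPS. The second probe (chr16:91405479-91405538) read 1979, 2227 and 1618. After scaling, CRL1505 + LPS was the highest and the other arrays lay close together. The log2 ratio of CRL1505 + LPS to LPS was 0.87 and 0.69 for the brighter and the second probe, or 1.83-fold and 1.62-fold. For CRL1506 + LPS it was -0.002 and -0.20, both under the spread between probes of 0.22. Over the 8 normalizations the brighter probe ranged from 0.36 to 1.17 with CRL1505 and reached 2-fold in 1, and from -0.20 to 0.10 with CRL1506. The second probe ranged from 0.19 to 0.99 with CRL1505. Its lowest value, under the spike-in shift, was within the spread between probes of 0.23. Among genes well above background on both arrays, 1296 of 13241 had a higher CRL1505 ratio than the brighter *Ifnar2* probe.

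*Ifnar1*, the partner chain, gave no single answer, as its 4 probes went apart with CRL1506. The brightest (chr16:91508662-91508721) read 1859 in LPS, 1778 in CRL1505 + LPS and 4516 in CRL1506 + LPS. The next (chr16:91491902-91491961, designed on another transcript) read 663, 639 and 1183. One further down the transcript (chr16:91507039-91507098) read 668, 482 and 466. The log2 ratios of CRL1506 + LPS to LPS for these were 1.37, 0.93 and -0.43. The dimmest probe, at 189, 99 and 231, gave 0.38. It is shown because its 60 bases map to chr16:91503764-91505350 and so cross an intron, and because it lists no other gene.
Ifnar1: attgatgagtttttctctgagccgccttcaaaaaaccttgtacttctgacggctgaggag
The SD over the 4 ratios was 0.78 with CRL1506, larger than for 89.6% of the genes with several probes. With CRL1505 the 4 ratios ran from -0.41 to 0.47, with an SD of 0.42. The brightest probe was past 2-fold with CRL1506, at 2.59-fold, and it was so in all 8 normalizations. The next was past 2-fold in 1 of them. In the array annotation the brightest probe also carries an accession that RefSeq gives to *Cenpc1*, a centromere gene. The detected probe of *Cenpc1* itself had log2 ratios of -0.62 with CRL1505 and -0.41 with CRL1506, and its other probe was dim on all arrays. Whether *Cenpc1* transcripts add to the *Ifnar1* reading was not tested.

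The chains of the interferon γ receptor, *Ifngr1* and *Ifngr2*, were both lower than in LPS with both strains, by less than 2-fold apart from 1 of the 8 normalizations. IFNGR1 binds the ligand and IFNGR2 completes the signalling receptor. *Ifngr1* (chr10:19329923-19329982) read 3159 in LPS, 1449 in CRL1505 + LPS and 2143 in CRL1506 + LPS. *Ifngr2* (chr16:91563982-91564041) read 6114, 3187 and 4140. LPS gave the highest value of each gene. The log2 ratio of *Ifngr1* to LPS was -0.60 with CRL1505 and -0.47 with CRL1506. That of *Ifngr2* was -0.42 and -0.47. All 4 were below 0 in each of the 8 normalizations. Many genes went lower. With CRL1505, 1851 of 13241 genes had a lower ratio than *Ifngr1* and 2698 a lower one than *Ifngr2*. With CRL1506 these were 1678 and 1653 of 14403. With CRL1505 *Ifngr1* ranged from -1.11, past 2-fold, under the spike-in shift to -0.30 under the median shift, and *Ifngr2* from -0.92 to -0.12, the last within the spread between probes of 0.23. With CRL1506 both lay between -0.67 and -0.38. The strains differed from each other by -0.13 for *Ifngr1* and 0.06 for *Ifngr2*, less than the spread between probes of 0.32, and the signs turned with the normalization. *Il10rb*, a chain shared by the type III interferon and interleukin 10 receptors, had log2 ratios of -0.24 and -0.45. Its partner *Ifnlr1* was dim on each array.

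**Figure D3:**
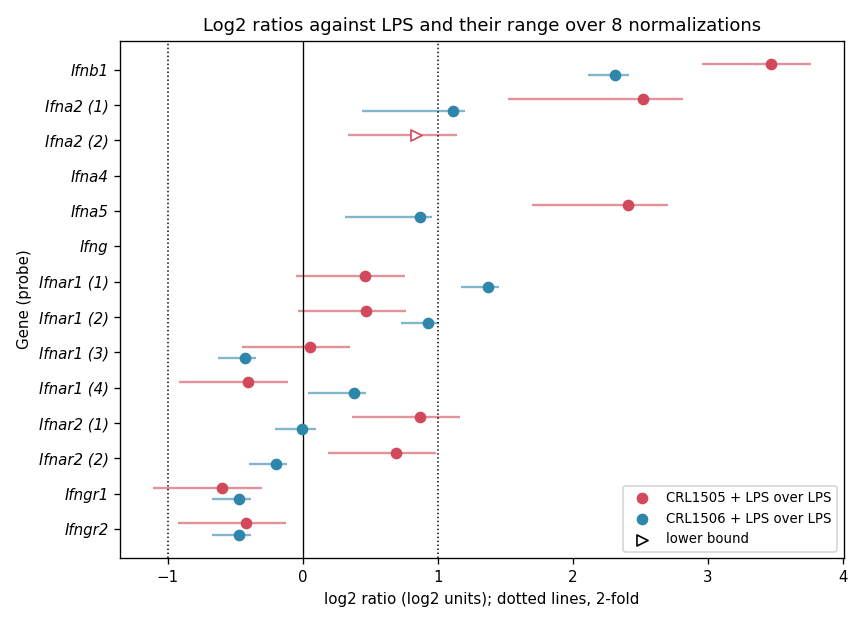
Log2 ratio to LPS of every probe for CRL1505 + LPS (red) and CRL1506 + LPS (blue). Points are the main values, horizontal lines their range over 8 normalizations and not an error, the open triangle a lower bound, and dotted lines mark 2-fold. *Ifna4* and *Ifng* were dim and have no point. The interferon ligands lie on the right, *Ifngr1* and *Ifngr2* on the left, and the 4 *Ifnar1* probes scatter from -0.43 to 1.37 with CRL1506.

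Counted over the members, 7 of 9 could be compared. With CRL1505, 3 of the 7 (*Ifnb1*, *Ifna2* and *Ifna5*) were at least 2-fold higher than in LPS, where 10.1% of all 15651 genes compared were, and 0 were 2-fold lower, where 8.41% of all genes were. With CRL1506, 3 of the 7 (*Ifnb1*, *Ifna2* and *Ifnar1*) were at least 2-fold higher, against 5.86% of 16337 genes, and 0 were lower, against 3.57%. *Ifnar1* counted through its brightest probe. With the mean over its probes the log2 ratio was 0.56, short of 2-fold. *Ifna2* was past 2-fold with CRL1506 in 3 of the 8 normalizations. Between the strains, *Ifnb1*, *Ifna2* and *Ifna5* were at least 2-fold higher with CRL1505, against 9.09% of 15806 genes. In the main scaling 0 were lower, against 7.48%. The brightest probe of *Ifnar1* had a log2 ratio of -0.91 between the strains. It was 2-fold lower with CRL1505 in 5 of the 8 normalizations. In the main scaling the 4 *Ifnar1* probes ran from -0.91 to 0.48. Without the probes that carry accessions of several genes, an alternative chosen after seeing the data, *Ifnb1* and *Ifna5* remained for CRL1505 and *Ifnb1* alone for CRL1506. Other scalings move all genes together. The median ratio over all genes was 0.06 with CRL1505 and -0.06 with CRL1506, and it became 0.35 and -0.26 when arrays were scaled to their median and -0.45 and -0.17 when scaled to spike-ins.

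The start regions of the ligand genes are shown because the factors that LPS activates bind there. Each line gives bases 170 to 71 upstream of the RefSeq start, on GRCm38.p6. Capitals mark matches to AANNGAAA, a core read by IRF factors, and in *Ifnb1* also the κB motif, which NF-κB reads, as the last run in capitals. *Ifnb1* lies on the minus strand at chr4:88522865-88522964, *Ifna2* on the minus strand at chr4:88683850-88683949, *Ifna5* on the plus strand at chr4:88835355-88835454 and *Ifna4* on the plus strand at chr4:88841646-88841745.
Ifnb1: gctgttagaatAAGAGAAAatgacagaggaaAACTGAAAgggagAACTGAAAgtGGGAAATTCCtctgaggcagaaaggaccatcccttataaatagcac
Ifna2: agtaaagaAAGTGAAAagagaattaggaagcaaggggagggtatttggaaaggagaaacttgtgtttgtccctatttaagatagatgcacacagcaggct
Ifna5: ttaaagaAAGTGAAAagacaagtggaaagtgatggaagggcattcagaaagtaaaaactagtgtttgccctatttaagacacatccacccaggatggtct
Ifna4: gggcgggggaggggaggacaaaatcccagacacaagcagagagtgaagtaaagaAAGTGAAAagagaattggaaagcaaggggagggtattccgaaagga
In the 250 bases upstream, on either strand, AANNGAAA matched 3 times in *Ifnb1*, 2 times in *Ifna2* and *Ifna5*, 3 times in *Ifna4* and 1 time in *Ifng*. It matched 0 times in the 4 receptor genes. Of 32851 RefSeq promoters, 21.3% held at least 1 match and 0.85% held 3 or more. The κB motif was found in *Ifnb1* and *Ifngr2* and in 7.3% of all promoters. A match is a description of these letters and not evidence of binding.

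Genes upstream of the ligands, from TLR4 to the IRF factors, were mostly within 2-fold of LPS. Of 15 genes, 2 were at least 2-fold higher with CRL1505, 1 with CRL1506, and 0 lower with either, near the 10.1% and 5.86% of all genes that were higher. Over the normalizations 1 to 4 were higher and 0 to 2 lower with CRL1505, and 0 to 2 higher and 0 to 2 lower with CRL1506. *Irf7* had a log2 level of 6.14 in LPS, 8.04 in CRL1505 + LPS and 7.01 in CRL1506 + LPS, which gave log2 ratios of 1.90 and 0.87. The kinase gene *Tbk1* had ratios of 1.07 and -0.17. *Ly96*, whose product MD-2 holds LPS at TLR4, had ratios of 0.30 and 1.05, and the second fell to 0.85, short of 2-fold, at the lowest. The median of the list was 0.30 with CRL1505 and -0.21 with CRL1506, and under the normalizations the first ran from -0.21 to 0.59.

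Among 6 genes that signal from the receptors, 2 were at least 2-fold higher with CRL1505, against 10.1% of all genes. With the mean over probes 1 was. With CRL1506, 0 were at least 2-fold higher, near the 5.86% of all genes. The 2 genes of the main scaling were *Jak2* and *Stat2*. *Jak2*, a kinase of the interferon γ receptor, had log2 ratios of 1.53 and 0.54. *Stat2*, which encodes a part of the factor that answers type I interferons, had 1.56 and 0.53. Of 7 genes that restrain the receptors, 3 were at least 2-fold higher with CRL1505, against 10.1% of all genes. With CRL1506, 0 of the 7 were, near the 5.86% of all genes. *Usp18*, which blocks IFNAR2, had ratios of 2.13 and 0.63. *Socs1* and *Socs3*, inhibitors of JAK kinases, were the others. Of all these, *Tbk1* and *Socs3* fell short of 2-fold with CRL1505 under at least 1 normalization, with 0.56 and 0.98 at the lowest.

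Of the target genes of type I interferons, most were at least 2-fold higher with CRL1505 and a minority with CRL1506. In the main scaling all 20 genes of the list were above LPS with either strain and higher with CRL1505 than with CRL1506. The direction turned under at least 1 other normalization for *Cxcl10* against LPS (-0.04 with CRL1505 and -0.17 with CRL1506 at the lowest) and, between the strains, for *Oas1a* (-0.12) and *Bst2* (-0.16). With CRL1505, 19 of 20 were at least 2-fold higher, all but the chemokine gene *Cxcl10* (log2 ratio 0.47), where 10.1% of all genes were. The median was 1.90, against 0.01 over all genes compared. With CRL1506, 7 of 20 were 2-fold higher (*Mx1*, *Ifit3*, *Oas2*, *Oasl2*, *Rsad2*, *Bst2* and *Cmpk2*), against 5.86% of all genes, and the median was 0.84 against -0.06. The antiviral gene *Rsad2* had a log2 level of 6.04 in LPS, 8.40 in CRL1505 + LPS and 7.14 in CRL1506 + LPS. *Ifit2*, which blocks translation of viral RNA, had the largest ratio of the list with CRL1505, 2.82, and 0.94 with CRL1506. *Oas2*, a sensor of double-stranded RNA, had the largest with CRL1506, 1.51, and 2.20 with CRL1505. The other genes past 2-fold with CRL1505 were *Mx2*, *Isg15*, *Ifit1*, *Oas1a*, *Oas3*, *Oasl1*, *Ifi44*, *Zbp1*, *Ddx58*, *Ifih1* and *Xaf1*. Over the normalizations 14 to 19 genes were past 2-fold with CRL1505 and 3 to 10 with CRL1506.

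The list of interferon γ target genes differed between the strains although *Ifng* was not measured above background. With CRL1505, 8 of the 9 genes compared were at least 2-fold higher (*Gbp2*, *Gbp3*, *Gbp5*, *Irgm1*, *Igtp*, *Iigp1*, *Cxcl9* and *Tap1*), against 10.1% of all genes, and the median log2 ratio was 2.09 against 0.01. Over the normalizations 6 to 8 were. With CRL1506, 0 of 10 were higher, against 5.86% of all genes, *Cxcl9* was 2-fold lower, and the median was 0.07 against -0.06. *Gbp5*, a guanylate-binding protein of inflammasome activation, had a log2 level of 1.87 in LPS, 5.17 in CRL1505 + LPS and 2.03 in CRL1506 + LPS. Its log2 ratio to LPS was 3.31 with CRL1505 and 0.16 with CRL1506. *Igtp*, an immunity-related GTPase, had ratios of 2.29 and 0.02. *Cxcl9*, a chemokine, had 1.16 and -1.27. *Ciita*, the master factor of MHC class II, could not be compared for CRL1505, and *H2-Aa* and *Ido1* were dim on all arrays. *H2-Ab1* had ratios of 0.09 and -0.50. Between the strains, 8 of 9 genes were at least 2-fold higher with CRL1505, against 9.09% of all genes. Type I interferons are known to induce many guanylate-binding proteins and immunity-related GTPases as well. Which interferon, if any, lay behind the values of this list was not tested.

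**Figure D4:**
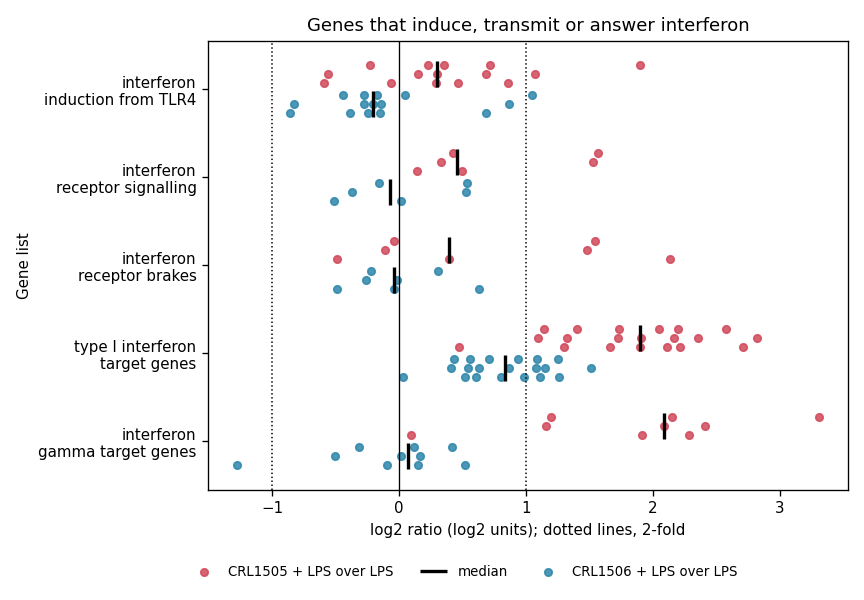
Log2 ratio to LPS of the genes of 5 lists, for CRL1505 + LPS (red, upper rows) and CRL1506 + LPS (blue, lower rows). Each point is 1 gene, vertical offsets within a row only separate points, black bars are medians, dotted lines mark 2-fold, and *Ticam2* (at least this high) and *Ciita* with CRL1506 (at most this high) stand at a bound. The type I target genes lie right of 0 with both strains, with medians of 1.90 and 0.84, and the interferon γ target genes do so as a list with CRL1505 only (2.09 against 0.07).

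Cell type markers moved with these genes in part. Among the macrophage markers, *Adgre1* and *Fcgr1* were at least 2-fold higher with CRL1505, with log2 ratios of 2.27 and 2.40, and *Csf1r* was lower, at -1.47. With CRL1506 *Adgre1* was just past 2-fold, *Fcgr1* was at 0.95 and *Csf1r* at -0.87. The level of the list summed on the linear scale, in units of the 75th percentile, was 607 in LPS, 573 in CRL1505 + LPS and 490 in CRL1506 + LPS. Plasmacytoid dendritic cells are known for high *Ifna* output. Of their markers, 3 of 6 (*Siglech*, *Cox6a2* and *Pacsin1*) were well above background on all arrays, *Ly6d* in LPS only, and *Ccr9* and *Klk1* on none. The list summed to 83.8, 110 and 117. *Cox6a2* was higher with both strains, with log2 ratios of 3.31 and 1.73, and *Siglech* had 0.35 and 0.53. The T and NK cell list summed to 1.79, 1.65 and 1.88. The samples are 1 macrophage line, so these lists describe genes of that line and are not evidence of other cells. Whether the listed genes bear on the interferon values was not tested.

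The genes whose pair of ratios to LPS lay closest to that of *Ifnb1* were sought among 13125 genes well above background on all 3 arrays. Closeness was the Euclidean distance between the pairs of log2 ratios for CRL1505 and CRL1506. The nearest was *Csf3*, a granulocyte growth factor, at a distance of 0.075 and with ratios of 3.53 and 2.35. *3110006O06Rik*, *St18*, *Ms4a6d* and *Cox6a2* followed at distances of 0.41 to 0.60. Their CRL1505 ratios lay between 3.04 and 3.53 and their CRL1506 ratios between 1.73 and 2.67. Likeness over 3 arrays that share 1 LPS array is a description of these libraries only.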

How the data were processed

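RNA of RAW 264.7 macrophages was labelled with Cy3 and hybridised to SurePrint G3 Mouse GE 8x60K arrays. The authors deposited the Feature Extraction output of each array, in which the processed signal is an intensity with local background removed and no normalization between arrays (version 12.0.3.1 in the files). They also deposited a table of log2 values, normalized between arrays, with a median of 6.86 over the gene spots of each array. For the main values, the 75th percentile over an array's gene spots was subtracted from its log2 processed signals. Outlier spots were left out (241 to 467 per array), no gene spot was saturated, and repeated spots were averaged. A gene is represented by its brightest probe, one without outlier spots where there is a choice, and members are given for every probe. Probes well above background on neither array were left out, and a ratio with 1 dim side is a bound. Probe positions are on mm9, from the array annotation, which does not say whether they are coding or untranslated. Motifs and promoters come from RefSeq (GRCm38.p6), which held all 9 members. The methods call a gene changed by 2 criteria, a fold and a t-test against cells without LPS. With 1 array per condition in the files used here the t-test was not run, and the same fold, 2-fold, was applied alone and against LPS. Named were all members, each gene of the other lists that was 2-fold apart from LPS with a strain (or else its 2 brightest), the cell type markers, and the 5 genes most like *Ifnb1*. Genes named as below background or short of 2-fold were added after their values were seen. The members and lists were chosen with earlier results of these data known. One gene of the receptor signalling list is not reported here. Python 3.11.15, pandas 2.3.3, R 4.3.3 and limma 3.58.1 (quantile, cyclic loess and normexp with an offset of 50) were used. The ratio step was tested on simulated data in which 200 of 26840 genes were changed.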

Additional observations from a re-analysis of the deposited data

How the results depend on the processing

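The 13 alternatives set in advance and 1 added later were run for each member. *Ifnb1* stayed past 2-fold above LPS with both strains under each of them. With CRL1505 its log2 ratio moved to 3.76 when arrays were shifted by the median, 2.96 by spike-ins and 3.23 in the deposited table. Between the strains it moved to 1.65 and 0.75 under the median and spike-in shifts. A threshold of 1.5-fold gave 5 members for CRL1505, 4 higher and 1 (*Ifngr1*) lower. It gave 5 between the strains, 4 higher and 1 (*Ifnar1*) lower with CRL1505. A threshold of 4-fold gave 1 member for CRL1506 and 0 between the strains. The shares of all genes past 1.5-fold and 4-fold are not given here. Counts at these 2 thresholds, also those of the target genes below, therefore cannot be set against all genes. Without probes of several genes, an alternative chosen after seeing the data, 1 member was left for CRL1506. The cause of these moves was not tested, other than that fewer probes or another threshold were used.

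Of the type I target genes, 9 passed 4-fold with CRL1505. With CRL1506, where 7 of 20 passed 2-fold, 3 did so under the median shift, 4 under spike-ins, 11 with the mean over probes, 14 at 1.5-fold and 0 at 4-fold. Between the strains, where 11 passed, 17 did so under the median shift, 6 with quantile normalization, 5 under spike-ins, 7 in the deposited table, 6 with the mean over probes and 0 at 4-fold. Of the interferon γ target genes, 5 passed 4-fold with CRL1505 and 4 between the strains. With CRL1506, 1 was 2-fold apart, and 0 were so with normexp, 2 with the mean over probes and 0 at 4-fold. No result past 2-fold changed sign.

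No paired analysis was possible because each condition has 1 array. Dim probes limit what can be said of *Ifna4* and *Ifng*, whose signals of 5.9 to 22.1 were not well above background. Without the filter on dim probes *Ifna4* would count as 2-fold higher with both strains.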
